A study of Arabidopsis thaliana with 6 samples.

Results

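The genes described here encode histone H2B and linker histone H1 in Arabidopsis thaliana. They are 10 loci, 7 for H2B (HTB1, HTB2, HTB3, HTB4, HTB5, HTB9 and HTB11) and 3 for H1 (H1.1, H1.2 and H1.3), out of 21975 loci that had a probe set on the array. The loci were selected by gene family, with the heat-against-control difference of the same arrays already known, and the probe set of a locus was chosen by its mean brightness over all 6 arrays. The values that follow for these loci are therefore a description of the arrays that chose them. Calls and intervals from the fit across all probe sets are printed for these loci as description, and are not independent tests. On these arrays a transcript is read by several short probes, summarised together as a probe set. Each of the 10 loci had 1 probe set, and each of these matched that locus alone in the authors' annotation. The H2B coding sequences resemble each other closely, and cross-hybridisation between them was not tested.

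Total RNA came from seedlings of the Col-0 accession, the common laboratory strain, on 6 Affymetrix expression arrays. The heat group held 3 arrays of plants that spent 30 min in the dark at 37 °C, and the control group held 3 arrays from seedlings kept in darkness without heat. All seedlings had been cold-treated as seeds at 4 °C for 72 h in the dark and raised at 23 °C on solid Murashige and Skoog medium under a long-day cycle (16 h light, 8 h dark), and the labels name no mutation or transgene. The study set out to describe the transcript response to heat in light and in darkness, and the light groups are not analysed here. The series' design text gives an age of 10 days, whereas the sample labels give 19, 20 and 21 days for heat replicates 1 to 3 and 16, 17 and 18 days for control replicates 1 to 3, so labelled age and treatment cannot be told apart. Nothing in the labels says that replicates were grown separately, so every error and p-value reflects array-to-array spread alone, which may be technical. Array correlations ran from 0.989 to 0.991 within heat, from 0.976 to 0.988 within control, where replicate 2 was the lowest partner, and from 0.941 to 0.954 between groups. The 4 heat shock genes chosen as a treatment check rose, each with every heat array above every control array, among them HSP17.6A (9.08 log2 units, SE 0.11, limma adjusted p = 1.91e-08).

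DNA in the nucleus is wound around nucleosomes, in which H2B pairs with H2A and these dimers flank a core of H3 and H4. Linker histone H1 binds where the DNA enters and leaves the nucleosome and helps to compact the chromatin fibre. Many plant core histone genes are transcribed mainly in the DNA synthesis phase (S phase) of dividing cells, when new nucleosomes are assembled. H1.1 and H1.2 are the main linker histones of Arabidopsis, and H1.3 is a variant known for its induction by drought and abscisic acid.

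Most H2B and H1 transcripts were lower after 30 min of heat in darkness. All 10 probe sets had a negative heat minus control difference, with a median of -1.54 on the log2 scale against -0.01 over the 22746 probe sets tested. In 8 of the 10 loci every heat array lay below every control array, and the same 8 were at least 1 log2 unit lower. Over all probe sets, 15.8% had every heat array below every control array and 2.17% were at least 1 log2 unit lower. The exceptions were HTB4 and H1.3. On the limma fit across all probe sets, with Benjamini-Hochberg adjustment and a threshold of 0.05 on adjusted p, 8 of the 10 loci were called lower, beside 4.00% of all probe sets, and 0 were called higher, beside 2.34%. At an unadjusted p under 0.05, 8 were lower and 0 higher, and the share over all probe sets was not computed. Since this contrast chose the loci, nothing is read from the call counts. With labelled age as a covariate, 2 of the 10 (HTB1 and HTB9) were called lower, beside 0.0440% of all probe sets. All 10 differences stayed below 0 in that fit. In bulk seedling RNA, fewer cells of a type and less RNA per cell cannot be told apart.

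**Figure D1:**
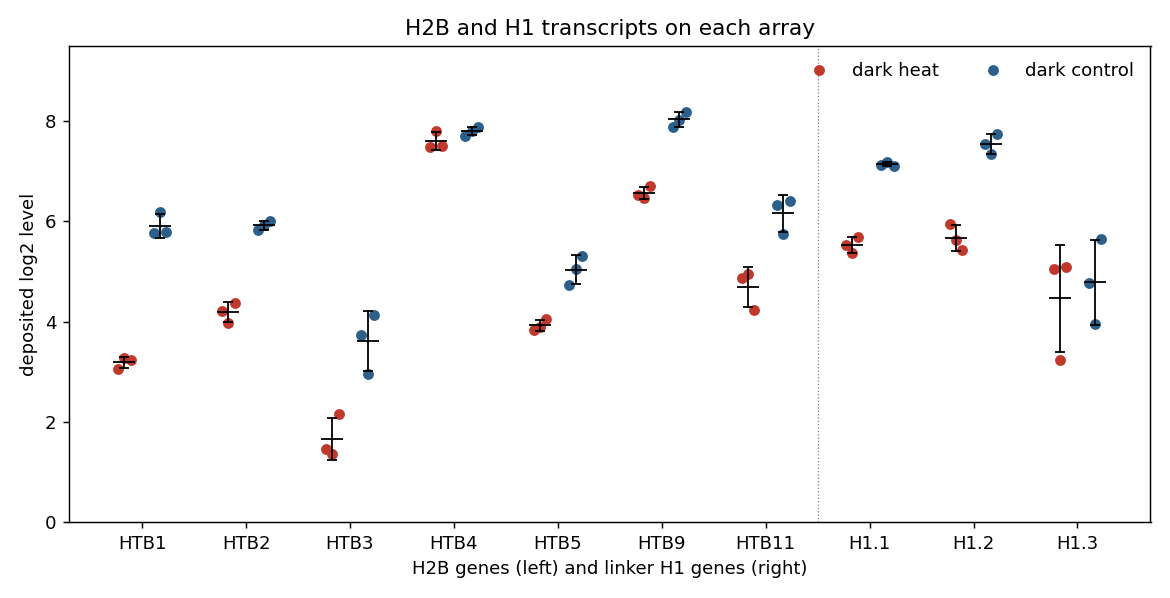
Deposited log2 levels (y axis) of the 7 H2B and 3 linker H1 genes (x axis) on each array, dark heat in red left of dark control in blue; horizontal marks are group means and bars the SD (n = 3 arrays per group). The groups are separate for all genes except HTB4 and H1.3, whose arrays overlap.

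HTB1 (AT1G07790) showed the largest difference among the H2B genes. Its log2 level was 3.06, 3.28 and 3.23 on heat replicates 1 to 3, against 5.77, 6.18 and 5.78 on control replicates 1 to 3. The groups were separated by a gap of 2.49 log2 units, far wider than the SD of 0.12 in heat or 0.24 in control. The difference of -2.72 (SE 0.15, 95% interval -3.06 to -2.38) put the heat level at 15.2% of the control level, and only 3 probe sets on the array had a more negative difference. Its level stood at percentile 56.7 of all probe sets in heat and at percentile 87.1 in control.

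HTB2 (AT5G22880) had log2 levels of 4.22, 3.98 and 4.38 in heat, against 5.83, 5.93 and 6.01 in control. Heat and control arrays lay 1.45 units apart, and the heat level was 30.2% of control (difference -1.73, SE 0.13). HTB3 (AT2G28720) had 1.47, 1.37 and 2.15 in heat, against 3.74, 2.96 and 4.14 in control. The level of HTB3 stood at percentile 13.4 in heat and 60.6 in control. No detection call accompanies the values, so its heat level cannot be told from background and its difference (-1.95, SE 0.32) depends on that background. Its arrays also spread widely, with a residual SD of 0.52 that exceeded those of most probe sets (percentile 97.2). The call of HTB3 ended without heat replicate 1 or 2.

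The neighbouring genes HTB9 (AT3G45980) and HTB11 (AT3G46030) differed from control by the same amount, -1.47, but with unequal precision. HTB9 read 6.52, 6.47 and 6.71 on the heat arrays, against 7.89, 8.03 and 8.19 on the control arrays (SE 0.13). HTB11 read 4.87, 4.96 and 4.23, against 6.33, 5.74 and 6.41 (SE 0.24). For each of them the heat level was 36.1% of control, with a gap between the groups of 1.18 for HTB9 and 0.78 for HTB11. The wider error of HTB11 came with heat replicate 3 and control replicate 2, each the lowest array of its group. Its call ended without control replicate 3.

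HTB5 (AT2G37470) showed the smallest of the clear differences. Its levels were 3.84, 3.90 and 4.05 in heat, against 4.74, 5.06 and 5.32 in control, which do not overlap. The difference was -1.11 (SE 0.16, 95% interval -1.48 to -0.73), so the heat level was 46.4% of control.

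HTB4 (AT5G59910) was the H2B gene whose heat and control arrays overlapped. Heat replicates 1 to 3 read 7.49, 7.81 and 7.51, and control replicates 1 to 3 read 7.71, 7.81 and 7.88. Its difference of -0.19 (SE 0.13) had a 95% interval of -0.49 to 0.10. The probe set is not dim, since HTB4 stood at percentile 95.8 in heat and 96.5 in control.

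Linker histone genes H1.1 (AT1G06760) and H1.2 (AT2G30620) were both lower after heat. H1.1 read 5.53, 5.37 and 5.69 on the heat arrays, against 7.13, 7.18 and 7.11 on the control arrays. Its control SD of 0.04 was the lowest of the 10 genes, and the heat level was 32.8% of control (difference -1.61, SE 0.12, 95% interval -1.88 to -1.34). H1.2 read 5.94, 5.63 and 5.43 in heat, against 7.55, 7.34 and 7.75 in control. Its groups lay 1.40 units apart, and its heat level was 27.1% of control (difference -1.88, SE 0.17).

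The drought-inducible variant H1.3 (AT2G18050) was too variable for a difference to be measured. It read 5.06, 3.24 and 5.09 on heat replicates 1 to 3, against 4.77, 3.95 and 5.64 on control replicates 1 to 3. Replicate 2 was the lowest array in both groups, and the groups overlapped throughout. With a residual SD of 0.96 (percentile 99.8 of all probe sets), the difference of -0.32 (SE 0.58) had a 95% interval of -1.67 to 1.02, which includes a loss as large as that of H1.1 and also a gain. The sign turned without control replicate 3 (0.10) or heat replicate 2 (0.29). Of 6 drought and abscisic acid marker genes, 1 rose and 0 fell. The riser was the dehydrin gene ERD10 (1.52, SE 0.17, limma adjusted p = 0.00211), with 8.57, 9.19 and 9.05 in heat against 7.52, 7.35 and 7.38 in control. ERD10 did not pass with labelled age as a covariate (1.27). The other 5 markers lay between 0.20 and 0.55 without passing. At an unadjusted p under 0.05, 2 of the 6 were higher, ERD10 and RD20, and 0 lower.

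Within the groups the 10 genes did not move as a block. On control replicate 3, 8 of the 10 lay above their group mean, with a median deviation of 0.18 log2 units, against 52.3% of all probe sets on that array. Control replicate 2, the least correlated control array, held 5 above and 5 below. Its lowest reading relative to the other controls was H1.3 (-0.83), followed by HTB3 (-0.65) and HTB11 (-0.42), while HTB1 was 0.27 above its mean. HTB1, HTB2, HTB4, HTB5, HTB9, H1.1 and H1.2 had residual SDs of 0.11 to 0.23.

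**Figure D2:**
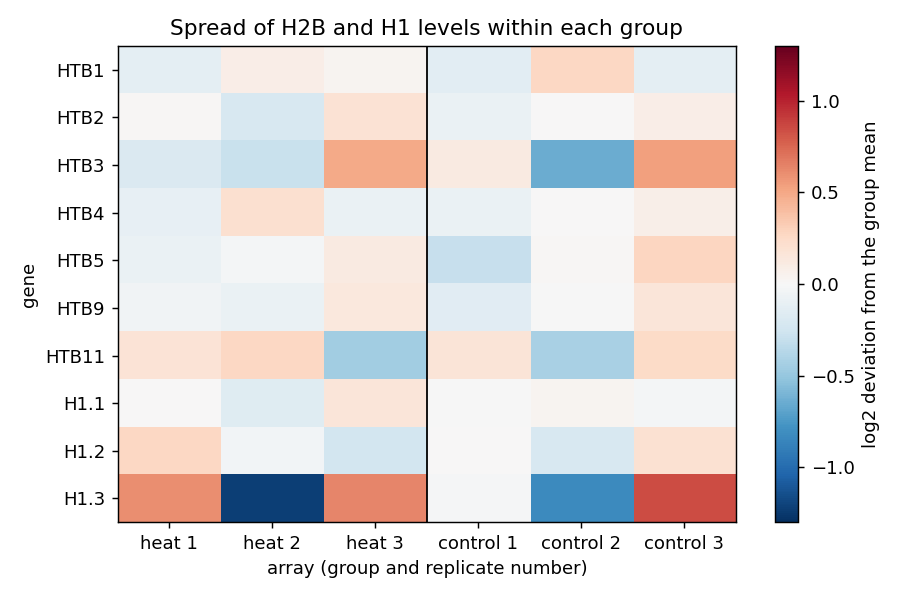
Deviation of each H2B and H1 gene (rows) from the mean of its own group on each array (columns, 3 heat then 3 control), in log2 units, red above and blue below. H1.3 carried the widest deviations, down to -1.22 on heat replicate 2 and up to 0.85 on control replicate 3, followed by HTB3 and HTB11.

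The other core histones were measured with less resolution between loci, because the H3.1, H3.3 and H4 genes share their probe sets. Of 34 further core histone loci, 33 were measured through 20 probe sets when the brightest was taken for each locus, and 8 of these fell and 0 rose, with a median of -0.47. At an unadjusted p under 0.05, 11 were lower and 0 higher. The number that fell was 5 without control replicate 3 or heat replicate 1, 10 without control replicate 2, and 0 with labelled age as a covariate. The remaining H2B genes gave little signal. HTB7, HTB8 and HTB10 lay at or below percentile 33.0 of level and none passed, while HTB6 (AT3G53650) was not measured. HTB7, the largest difference of these, read 1.96, 1.98 and 2.15 in heat against 1.89, 2.11 and 2.42 in control (-0.11, SE 0.15).

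H2A, the dimer partner of H2B, gave 6 falls and 0 rises among 13 genes (median -0.73). HTA13 fell by 2.89 on the log2 scale (SE 0.24, limma adjusted p = 0.000432), HTA2 by 1.72 (SE 0.15, adjusted p = 0.000587) and HTA10 by 1.29 (SE 0.15, adjusted p = 0.00282). By the textbook classes, applied after the values were seen, 4 of 4 canonical H2A genes and 2 of 2 H2A.X genes fell, and 0 of 3 H2A.W and 0 of 3 H2A.Z genes passed in either direction, with 2 of the H2A.W genes and 0 of the H2A.Z genes lower at an unadjusted p under 0.05. Differences between the classes were not tested.

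H3 and H4 form the centre of the nucleosome. The brightest probe set of the 5 H3.1 loci read 6.17, 5.68 and 5.92 in heat against 7.27, 7.72 and 7.57 in control and fell by 1.60 on the log2 scale (SE 0.17, limma adjusted p = 0.00159). The brightest of the 8 H4 loci read 8.07, 8.11 and 8.03 in heat against 8.94, 9.11 and 8.91 in control and fell by 0.92 (SE 0.11, adjusted p = 0.0025). Taking every probe set, 5 of 5 for H4 fell, from -2.48 to -0.92, and 6 of 10 for H3 fell, from -2.63 to -0.76. The H3 value of -0.76 belongs to an H3.3 probe set, and the brighter H3.3 probe sets (-0.48 and -0.39) did not pass. The other H3 falls, from -2.63 to -1.35, were of H3.1 probe sets, while a dim H3.1 probe set (percentile 19.8) stood at 0.04. CENH3, the histone of centromeres, read 2.88 ± 0.29 in heat and 2.79 ± 0.19 in control (SD, n = 3 arrays each, limma).

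**Figure D3:**
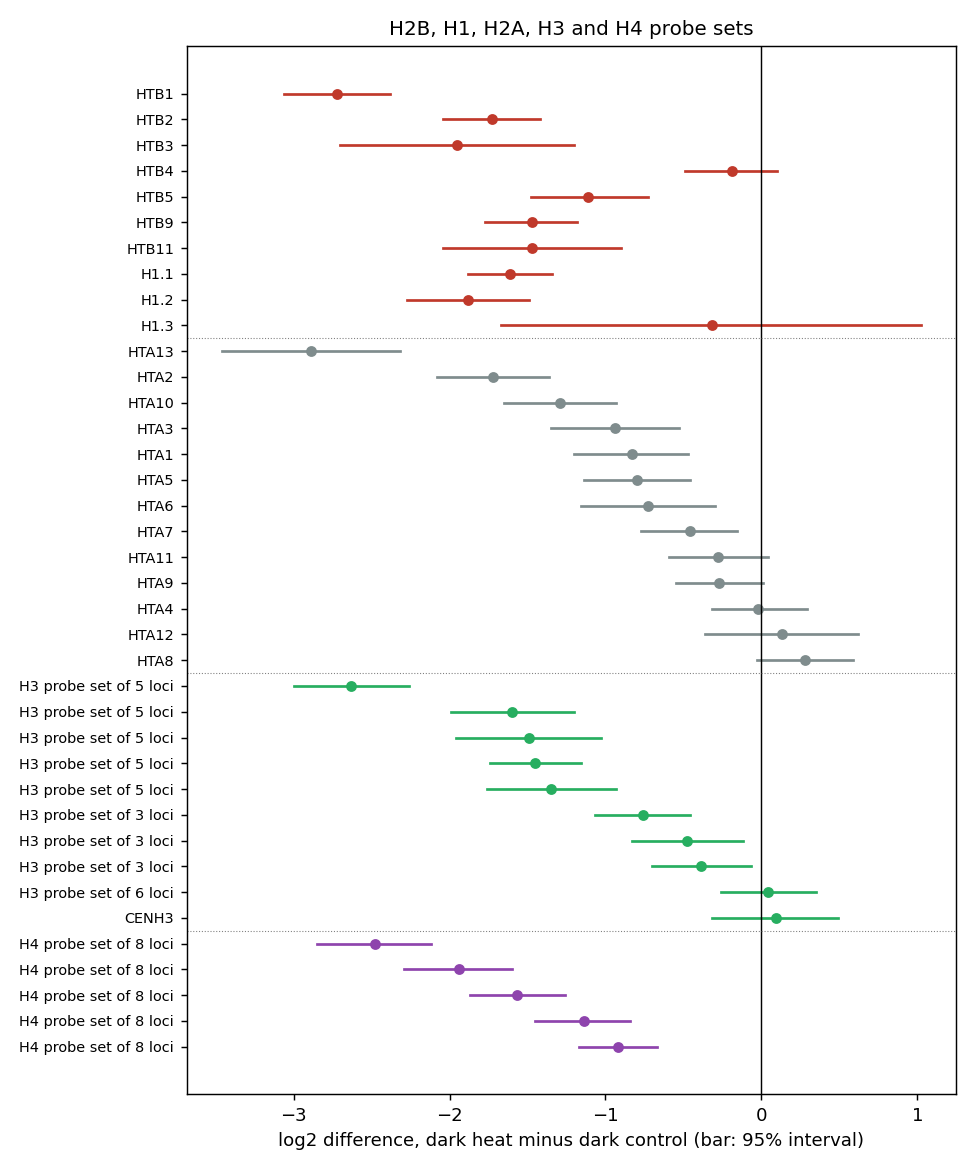
Log2 difference, dark heat minus dark control (x axis), of each H2B and H1 gene (red), H2A gene (grey), H3 probe set (green) and H4 probe set (purple), with limma's 95% interval as a bar. Points left of 0 are lower after heat; HTB4 and H1.3 are the H2B and H1 points whose intervals include 0.

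The lists of histone chaperones, H2B ubiquitination genes and H1-related or high-mobility-group proteins showed smaller differences. Of 13 histone chaperones, which carry histones to and from DNA, NAP1;2 alone fell (-0.59, SE 0.14, limma adjusted p = 0.046) and 0 rose, with a list median of -0.14. At an unadjusted p under 0.05, 3 chaperones were lower and 0 higher. In 6 of the 13 every heat array lay below every control array, beside 15.8% of all probe sets. NAP1;2 is an H2A-H2B chaperone. It no longer passed after leaving out control replicate 1 (-0.57) or 3 (-0.51) or heat replicate 1 (-0.62), 2 (-0.63) or 3 (-0.53), after median centring (-0.48), with a variance trend or the replicate number as a block (-0.59 in both), or with labelled age as a covariate (-0.54). Of 7 genes for the attachment and removal of ubiquitin on H2B, 0 fell and 0 rose (median -0.05). At an unadjusted p under 0.05, 0 of these were lower and 1 was higher, the ubiquitin-conjugating enzyme gene UBC2 (0.45, SE 0.16, limma adjusted p = 0.154), which passed without control replicate 3 (0.62). Among 13 H1-related and high-mobility-group proteins, HMGA, which shares a globular domain with H1, alone fell (-0.61, SE 0.14, adjusted p = 0.0413) and 0 rose (median -0.18), with 5 lower and 0 higher at an unadjusted p under 0.05. HMGA did not pass without control replicate 1 (-0.62) or 3 (-0.60), without heat replicate 2 (-0.57) or 3 (-0.52), with a variance trend or the replicate block (-0.61 in both), or under median centring, quantile normalization or cyclic loess (-0.50 to -0.47). With labelled age as a covariate its difference was -0.30, and it did not pass. In 3 of the 13 H1-related and high-mobility-group genes every heat array lay below every control array.

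Genes of the S phase list showed smaller differences than most of the H2B and H1 genes, which were chosen with this contrast known. Of 21 loci for DNA replication, nucleotide supply and their regulators, 20 were measured through 19 probe sets, and 0 fell and 0 rose on the limma fit (median -0.18). At an unadjusted p under 0.05, 3 were lower and 0 higher. Of the 19 probe sets, 16 had a difference below 0, as did 11750 of all 22746. With probe sets below the median level left out, the median difference of those kept was -0.15. Array medians over all probe sets were 2.78 to 2.81 in heat and 2.84 to 2.94 in control. In 8 of the 19 every heat array lay below every control array, beside 15.8% of all probe sets. The largest difference was that of RNR2A, a ribonucleotide reductase subunit, which read 3.95, 3.81 and 3.68 in heat against 4.11, 3.97 and 4.97 in control (-0.54, SE 0.25, limma adjusted p = 0.275). Without control replicate 3, its highest array, the difference of RNR2A was -0.23. The summed linear level of the list, as log2, was 8.03 to 8.25 in heat and 8.32 to 8.36 in control, so that the groups did not overlap. Of 9 loci active in G2 and mitosis, measured through 8 probe sets, 0 fell and 0 rose (median -0.20), with 1 lower and 0 higher at an unadjusted p under 0.05. The cytokinesis syntaxin KNOLLE had the largest difference (-0.42, SE 0.20, limma adjusted p = 0.278), which was -0.24 without control replicate 2. The summed level of the list was 6.35 to 6.55 in heat and 6.51 to 6.99 in control. Many of these genes are dim, with levels down to percentile 9.9. The part of dividing cells in the histone differences was not tested.

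**Figure D4:**
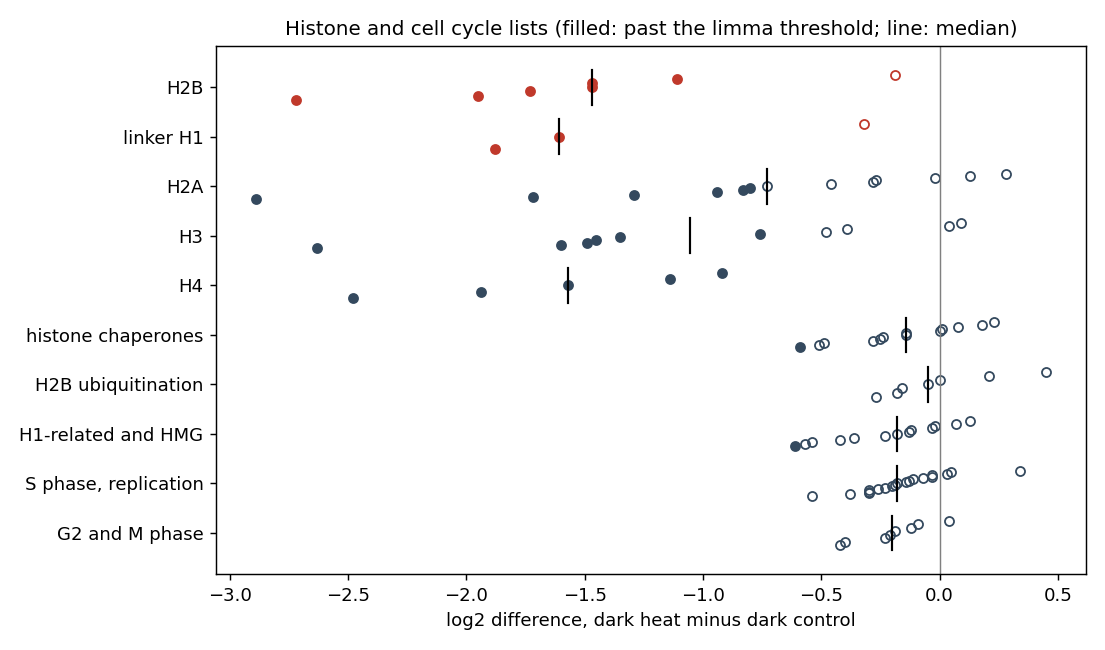
Log2 difference, dark heat minus dark control (x axis), of each probe set in the H2B and H1 sets (red) and in related lists (dark), where H3 and H4 show every probe set; filled points passed the limma threshold, open points did not, and the black line is the list median. The medians are -1.47 for H2B and -1.61 for H1, against -0.18 for S phase and -0.20 for G2 and M phase.

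Among markers of tissues, 1 root gene fell. Of 3 leaf markers 0 passed and their summed log2 level was 12.93 to 13.05 in heat and 13.02 to 13.18 in control. The root gene, 1 of 4 root markers, was the endodermal and stem cell regulator SCR (3.02 ± 0.30 in heat and 4.12 ± 0.21 in control, SD, n = 3 arrays each; difference -1.09, SE 0.18, limma adjusted p = 0.013). The summed level of the root markers was 4.84 to 5.09 in heat and 5.25 to 5.47 in control, so that the groups did not overlap. That sum includes SCR, and the other root markers COBL9 (0.05), EXPA7 (-0.02) and EXPA18 (-0.23) did not pass. Of 4 shoot meristem markers 0 passed (4.04 to 4.25 in heat and 3.89 to 4.42 in control), with WUS and CLV3 near the bottom of the array in both groups, as were all 4 flower and seed markers. At an unadjusted p under 0.05, 1 shoot meristem marker was lower and 0 higher. It was KNAT1 (-0.37, SE 0.12), also dim at percentile 7.4 in heat and 28.0 in control. STM (0.21), WUS (0.07) and CLV3 (0.24) lay above 0. The part of tissue makeup in the histone differences was not tested.

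Several H2B genes lie close to other histone genes in the gene order of the TAIR10.1 reference. HTB9 and HTB11 on chromosome 3 have 4 protein-coding genes between them, and 4 separate HTB9 from the H4 gene AT3G45930. HTB1 on chromosome 1 has 2 between it and the H4 gene AT1G07820, and HTB3 on chromosome 2 has 1 between it and the H4 gene AT2G28740. HTB4 on chromosome 5 has 4 genes between it and HTA6 (H2A.W) and 5 between it and the H4 gene AT5G59970. HTA6 read 7.05, 6.91 and 7.13 in heat against 7.66, 8.16 and 7.46 in control (-0.73, SE 0.18), and did not pass the test. The genes in these intervals were chosen by position after the values were seen. Of 20 such genes 18 had a probe set, 0 fell, 1 rose and 17 did not pass, with differences from -0.43 to 0.51 and a median of -0.07. Several of the 18 lie beside HTB4, an H2B gene that was not called lower itself. The gene between HTB3 and its H4 neighbour had no probe set. Between HTB9 and HTB11 lie the actin depolymerizing factor genes ADF2 (-0.11, SE 0.17) and ADF1 (-0.28, SE 0.14), and between HTA6 and HTB4 lie their relatives ADF3 (-0.30, SE 0.15) and ADF4 (-0.21, SE 0.15). The gene that rose was the calcium pump ECA1, between HTB1 and its H4 neighbour (0.51, SE 0.10, limma adjusted p = 0.0244). Whether its probe set reads ECA1 alone was not examined.

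The genes with profiles most like HTB1 over the 6 arrays were looked up among 585 single-locus probe sets with a mean log2 level of at least 5 and an SD of at least 0.5. They were LGO (a cyclin-dependent kinase inhibitor, Pearson r = 0.994), AT5G61590 (0.991), HTA13 (0.986), AT5G48490 (0.985) and the auxin efflux carrier PIN4 (0.983). The closest to H1.2 were AT1G28600 (0.996), HSL1 (a receptor kinase, 0.995), the transcription factor LBD38 (0.994), the phototropism gene RPT2 (0.994) and the fatty acid elongase KCS20 (0.994). These 10 genes were lower after heat by 0.90 to 2.89 log2 units. The arrays form 2 groups, so such values of r mostly state that both genes differ between heat and control.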

How the data were processed

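Expression was measured on 6 Affymetrix arrays. The authors deposited log2 values made with RMA, a method that corrects background, scales arrays to each other and summarises probes, per the submitters' processing notes. Software version and genome build: not given in the sources used here. A deposited table of the authors also held linear ratios of each heat array over the control array of the same number, which matched the log2 values within a relative gap of 6.26e-05. The log2 values were used as deposited. Probe sets were matched through the Entrez identifiers of this deposited table to the TAIR10.1 gene table: 20653 had 1 identifier (20482 matched a locus), 959 several and 1134 none. The 64 control probe sets were left out.

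Heat minus control was estimated in R 4.3.3 by limma 3.58.1 (lmFit, eBayes, group as the only term, two-sided, Benjamini-Hochberg over 22746 probe sets, threshold 0.05), after testing on simulated data. SE and 95% intervals are limma's moderated ones. Each locus was read by its brightest single-locus probe set, or the brightest shared one where it had no other. The number of arrays limits the precision. Genes and lists were chosen with earlier results of these data known. All 10 H2B and H1 genes are named, with up to 3 falls and 3 rises past the threshold in each list, or the largest difference where none passed; other genes named were chosen after their values were seen. Alternatives covered scaling, dim probe sets, variance moderation, a replicate block, labelled age, the choice of probe set and each array left out. No gene sequences were used here, so a planned search of promoter motifs was not run.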

Additional observations from a re-analysis of the deposited data

How the results depend on the processing

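All 10 H2B and H1 genes kept a negative difference under the alternatives run that kept them, except H1.3 without control replicate 3 (0.10) or heat replicate 2 (0.29); HTB3 was removed by the median filter on dim probe sets. With single arrays left out H1.3 ran from -0.74 to 0.29, and HTB7 from -0.24 to 0.0262, the last without control replicate 3. Between 7 and 8 of the 10 were called lower with single arrays left out, 7 with the replicate number as a block (HTB11 no longer passed), and 2 (HTB1 and HTB9) with labelled age as a covariate, a fit that extrapolates since no age occurs in both groups. That fit called 10 probe sets lower and 129 higher in all, and 0 of the other core histones, though all 10 H2B and H1 differences stayed below 0. With the replicate block, 410 probe sets were called lower and 5 of the other core histones, but same-numbered heat and control arrays did not deviate together (correlations -0.26, -0.24 and -0.24, and 0 of 6 arrays closest to their own number), so the numbers were not taken as pairs. Over single arrays left out, the whole-array count of lower calls ran from 275 to 2719 (main 909), that of higher calls from 371 to 1008 (main 533) and that of other core histones from 5 to 10 (main 8). The highest of each came without control replicate 2. The causes were not tested. S phase and G2 and M phase genes gave 0 falls under each of the 16 alternatives. Scaling moved the split of lower against higher calls to 679 and 671 after median centring and 688 and 713 after cyclic loess, against 909 and 533. Median centring moved the median difference of all probe sets to 0.10, against -0.01. Median centring, quantile normalization and cyclic loess each called the same number of H2B and H1 genes lower, 8. No detection call accompanies the values, so dim probe sets such as HTB3 in heat have no known distance from background.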
